A study of Homo sapiens with 4 samples.

Results

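The genes described here are 10 genes for chaperones and folding factors of the endoplasmic reticulum (ER): HSPA5, HSP90B1, DNAJB9, DNAJC3, CRELD2, HERPUD1, SDF2L1, MANF, HYOU1 and PDIA4. They were chosen by name, and their symbols were matched to the Ensembl identifiers of the count tables. All 10 were found, of 58884 genes listed, and all 10 were among the 19686 genes with enough counts to be tested. RNA was sequenced from HCT116, a human colorectal carcinoma line, in 2 control libraries and 2 libraries of cells with RALY, which encodes an hnRNP that binds RNA, knocked down. Per the labels' protocols, the cells took up lentivirus with a hairpin (shRNA) directed at RALY or a nonsilencing one, in the presence of polyprene, for 72 h, while the controls are elsewhere named untreated or WT. Which of these the controls were, and how many hairpins were used, the sources used here do not give. A source label numbers the line 1 higher in the second library of each group, although all are entered as HCT-116 elsewhere, and what this number marks is not explained. Separate cultures are not named for the libraries of a group, and p-values then cover no more than the differences between the libraries of a group, which may be technical.

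Proteins that enter the secretory pathway fold in the lumen of the ER with the help of the HSP70 chaperone BiP (HSPA5), the HSP90 chaperone GRP94 (HSP90B1), J-domain cochaperones and disulfide isomerases. When unfolded proteins build up, the sensors ATF6, IRE1 (gene ERN1) and PERK (gene EIF2AK3) start the unfolded protein response. Cleaved ATF6 and the spliced form of XBP1 then act with NF-Y on ER stress response elements in the promoters of chaperone genes, while PERK slows translation and raises ATF4. Secretory epithelia of the intestine rely on this system, and carcinoma cells often carry high levels of its chaperones.

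The 10 genes did not move together after RALY knockdown. DNAJB9 rose 1.94-fold. CRELD2, HERPUD1 and SDF2L1 fell, and were 1.5-fold, 1.38-fold and 1.37-fold higher in the controls than in the knockdown. The major chaperones HSPA5 and HSP90B1, as well as HYOU1, MANF, DNAJC3 and PDIA4, did not pass the test. In all, 1 of 10 was called higher and 3 of 10 lower (edgeR quasi-likelihood test, Benjamini-Hochberg adjusted p under 0.05 over all genes tested). Over all genes tested 25.6% were called, 12.5% higher and 13.1% lower. Above a mean level of 20 CPM (counts per 1000000, scaled with TMM factors) that each of the 10 exceeded, 28.5% of genes were called. The median log2 fold change was -0.10 for the 10 genes and 0.01 for all genes tested.

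The ER stress response element is a CCAAT box followed after 9 bases by CCACG, and its second form is an inverted CCAAT box, 1 base and CCACG. Both were searched as exact letters on both strands of the RefSeq promoter windows (GRCh38.p14, 250 bases before to 50 after the start site). These windows were found for all 10 genes, PDIA4 having a pair of them. The full elements are shown because 6 of the 10 genes hold at least 1. Each is printed 5′ to 3′ in the direction that puts the CCAAT box or its inverse first, with both outer parts in capitals.
HSPA5 chr9:125241391-125241409 (- strand): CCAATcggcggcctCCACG
HSP90B1 chr12:103930216-103930234 (+ strand): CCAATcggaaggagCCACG
HSP90B1 chr12:103930321-103930339 (- strand): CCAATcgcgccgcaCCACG
CRELD2 chr22:49918554-49918572 (- strand): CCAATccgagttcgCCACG
HERPUD1 chr16:56932025-56932035 (+ strand): ATTGGgCCACG
SDF2L1 chr22:21642114-21642124 (- strand): ATTGGtCCACG
HYOU1 chr11:119057274-119057284 (+ strand): ATTGGaCCACG
HYOU1 chr11:119057380-119057390 (+ strand): ATTGGaCCACG
The first form, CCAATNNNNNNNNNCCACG, occurred in 27 of 35116 promoter windows of the table (0.0769%), and in those of HSPA5, HSP90B1 and CRELD2. The second form, ATTGGNCCACG, occurred in 19 windows (0.0541%), and in those of HERPUD1, SDF2L1 and HYOU1. A match is a description of letters, not of binding. The CCAAT box and CCACG overlap the full elements by construction and are common: CCAAT occurred in 34.6% and CCACG in 38.1% of all windows, and all 10 genes held both. The core TGACGTG, also tied to XBP1 and ATF6, was in the window of HYOU1 and in 1.97% of all windows.

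The 250 bases before the start site are shown in full for HSPA5, whose element lies nearest to its start site, for HERPUD1 and SDF2L1, which fell and hold the second form, and for DNAJB9, which rose and holds neither. Capitals mark every CCAAT box and every CCACG on either strand.
HSPA5 chr9:125241344-125241593 (- strand): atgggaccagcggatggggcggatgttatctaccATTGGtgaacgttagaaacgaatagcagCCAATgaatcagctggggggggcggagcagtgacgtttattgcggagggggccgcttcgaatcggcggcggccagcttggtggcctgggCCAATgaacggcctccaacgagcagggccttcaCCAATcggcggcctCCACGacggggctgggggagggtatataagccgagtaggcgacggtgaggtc
HERPUD1 chr16:56931892-56932141 (+ strand): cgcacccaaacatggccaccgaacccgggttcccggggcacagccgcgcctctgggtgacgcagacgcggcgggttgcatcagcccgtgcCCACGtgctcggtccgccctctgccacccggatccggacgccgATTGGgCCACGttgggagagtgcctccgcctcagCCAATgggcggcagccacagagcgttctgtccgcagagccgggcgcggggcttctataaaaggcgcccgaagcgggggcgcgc
SDF2L1 chr22:21642052-21642301 (+ strand): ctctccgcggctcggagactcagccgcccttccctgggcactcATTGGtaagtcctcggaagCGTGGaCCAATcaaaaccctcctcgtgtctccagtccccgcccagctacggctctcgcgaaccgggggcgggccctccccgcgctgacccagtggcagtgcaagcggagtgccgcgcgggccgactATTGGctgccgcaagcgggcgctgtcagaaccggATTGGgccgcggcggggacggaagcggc
DNAJB9 chr7:108569624-108569873 (+ strand): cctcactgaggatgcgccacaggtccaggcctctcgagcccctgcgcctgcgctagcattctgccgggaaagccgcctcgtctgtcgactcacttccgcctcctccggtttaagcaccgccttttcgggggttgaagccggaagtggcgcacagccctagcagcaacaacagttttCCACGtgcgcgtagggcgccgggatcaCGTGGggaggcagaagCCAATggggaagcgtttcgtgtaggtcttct
In HSPA5 the element runs from 66 to 48 bases before the start site. In HERPUD1 it runs from 117 to 107 bases and in SDF2L1 from 188 to 178 bases before it. DNAJB9 has both, but not at either spacing. DNAJC3, MANF and PDIA4 also lack a full element in these windows.

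**Figure D1:**
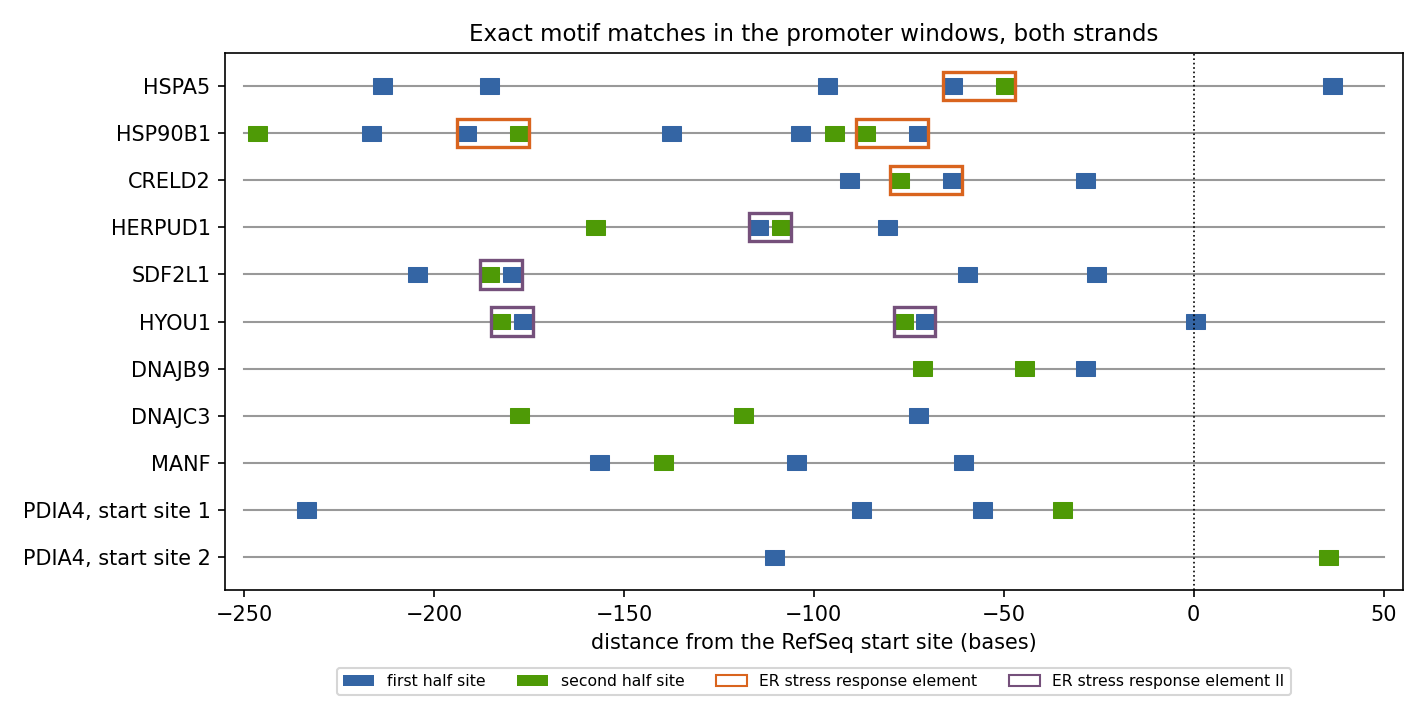
Exact motif matches in the promoter windows of the 10 genes, with the distance from the RefSeq start site in bases on the x axis and 1 line per window; filled boxes are the CCAAT box and CCACG and open frames are full elements. Full elements are framed in 6 genes, HSPA5, HSP90B1, CRELD2, HERPUD1, SDF2L1 and HYOU1, and in none of the windows of the other 4.

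The element did not separate called from uncalled genes. All 3 genes that fell hold one, and so do 3 genes that were not called. None of the 4 genes without a full element was called lower. Among all promoters, those of 44 genes had a full element, of which 32 were tested. Of these 32, 1 was called higher and 6 lower, or 21.9%, against 25.6% of all genes tested. This pools the 6 chaperone genes described here, which were chosen with earlier results of these data known, and 26 others. Their shares were not compared by a test. Of the 6 chaperone genes described here, 3 were called lower, or 50%. Of the other 26, 1 was called higher and 3 lower, or 15.4%. Among them the lectin chaperones CALR and CANX, the isomerase PDIA6, the oxidase ERO1B and the regulator XBP1 were not called, with log2 fold changes of -0.05, 0.10, -0.03, -0.15 and 0.01.

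Library totals lay between 13360007 and 16847520 counts. RALY fell to 27.9% of its control level (adjusted p = 6.59e-06 by edgeR). The epithelial markers EPCAM, KRT8 and KRT18 were present at 124, 189 and 130 CPM in the controls, and CDX2 fell by 0.47 on the log2 scale, while the enterocyte markers CDH17 and VIL1 were below 1 CPM in both groups. Of 7 goblet cell markers, whose cells are rich in ER chaperones, TFF3, AGR2 and CLCA1 had no count in any library. For these, 3 counts, the limit that no count allows, correspond to between 0.174 and 0.227 CPM (counting error only). The 7 markers summed to 10.99 and 12.7 CPM in the controls, against 6.30 and 5.18 CPM after knockdown, nearly all of it FCGBP. FCGBP fell by 1.12 on the log2 scale (adjusted p = 0.00694 by edgeR). The part of such cells in the results was not tested, and in these bulk libraries fewer cells of a type and less RNA per cell cannot be told apart. Markers of other cells were not called except ITGAM among 6 leukocyte genes and NEFH among 5 genes of the packaging line HEK293T, both higher. Summed levels were 33.3 to 37.1 CPM for leukocytes in the controls and 34.1 to 34.3 CPM in the knockdown, 134 to 145 and 138 to 153 CPM for HEK293T, and 127 to 147 and 103 to 132 CPM for fibroblasts. COL1A1 made up most of the last sum, while COL1A2, DCN and LUM were below 1 CPM in both groups.

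HSPA5 encodes BiP, which binds nascent chains in the ER and keeps the stress sensors inactive. The gene (ENSG00000044574, chromosome 9, positions 125234853 to 125241343, minus strand, GRCh38) had 4136 and 4251 counts in the controls, against 4049 and 4198 after knockdown. Its levels were 313 and 246 CPM in the controls, against 253 and 282 CPM after knockdown. The groups overlapped, and the controls differed more from each other than the groups did. The log2 fold change was -0.06 (SE 0.144, 95% interval -0.38 to 0.25, adjusted p = 0.791 by edgeR). The raw counts of HSPA5 differed by no more than 4.99% between libraries, while the library totals differed by up to 26.1%.

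Occupancy, the mean count as a percentage of 2 times the length of the canonical transcript, measures how near a count comes to a ceiling assumed for it. It was 53.0% for HSPA5 and 77.3% for HSP90B1, against a median of 12.3% for tested protein-coding genes. Of the 10 genes, 5 exceeded 40%: HSP90B1, HSPA5, PDIA4, MANF and HYOU1, none of which was called. Occupancy depends on the length used. The exon length in the tables is 2383 bases for MANF, 7723 for HYOU1 and 1059 for SDF2L1. The canonical length is 909, 4598 and 825 bases, so that the exon length would give these genes lower occupancies. The genes that were called had occupancies of 34.3% (SDF2L1), 25.2% (CRELD2), 23.5% (HERPUD1) and 12.1% (DNAJB9), and DNAJC3, which was not called, had 18.0%. Whether counts level off towards that ceiling was not tested here, and if they do, fold changes of the fullest genes are compressed. When counts were corrected for such a levelling off, with the canonical transcript length, HSPA5 had a log2 fold change of -0.09 (adjusted p = 0.733 by edgeR) and HSP90B1 one of -0.26 (adjusted p = 0.270 by edgeR).

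HSP90B1 encodes GRP94, the ER form of HSP90, which folds integrins and Toll-like receptors among other clients. The gene (ENSG00000166598, chromosome 12, positions 103930107 to 103953645, plus strand) had 329 and 262 CPM in the controls, against 259 and 281 CPM after knockdown. The first control was highest and the other 3 libraries lay close together. The log2 fold change was -0.13 (SE 0.141, 95% interval -0.44 to 0.18, adjusted p = 0.548 by edgeR). Other genes share 16.7% of its exon bases, UQCC6 on the opposite strand most of them. The sources used here do not state whether counting used strand. MIR3652, wholly within exons of HSP90B1 on the same strand, had 210 and 222 counts in the controls, against 197 and 173 after knockdown. ENSG00000255114, wholly within exons of HYOU1 on the opposite strand, had 0 and 0 counts in the controls, against 0 and 1 after knockdown. In these examples, reads of shared bases were counted for the same-strand gene too, and hardly at all for the opposite-strand gene.

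HYOU1 encodes GRP170, a large HSP70 relative that acts as a nucleotide exchange factor for BiP. It (ENSG00000149428, chromosome 11, positions 119044188 to 119057227, minus strand) had 292 and 266 CPM in the controls, against 260 and 276 CPM after knockdown. The groups overlapped (log2 fold change -0.06, SE 0.125, 95% interval -0.33 to 0.21, adjusted p = 0.784 by edgeR). The values of HSPA5 and HSP90B1 turned on single controls: their log2 fold changes were 0.084 and 0.0086 without the first control and -0.24 and -0.30 without the second, and neither was called in these fits.

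The J-domain cochaperones, which deliver clients to BiP and trigger its ATPase, behaved differently from each other. DNAJB9 encodes ERdj4, a target of IRE1 and XBP1 that helps BiP bind IRE1. The gene (ENSG00000128590, chromosome 7, positions 108569867 to 108574850, plus strand) had 293 and 506 counts in the controls, against 660 and 882 after knockdown. Its levels were 22.2 and 29.3 CPM in the controls, against 41.2 and 59.3 CPM after knockdown. Both knockdown libraries lay above both controls. The mean rose from 25.7 ± 4.99 to 50.2 ± 12.8 CPM (SD, n = 2 each; log2 fold change 0.96, SE 0.190, 95% interval 0.55 to 1.37, adjusted p = 0.00349 by edgeR). The log2 fold change was 0.74 without the first control and 1.16 without the second, where the call was lost (adjusted p = 0.127 and 0.0556 by edgeR). It was 1.18 without the first knockdown library and 0.67 without the second, where it was called from the spread of the control pair alone, the lone library being assumed to vary like the controls.

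DNAJC3 encodes p58IPK, a lumenal cochaperone first described as an inhibitor of the kinases PKR and PERK. The gene (ENSG00000102580, chromosome 13, positions 95677139 to 95794988, plus strand) had 128 and 128 CPM in the controls, against 127 and 143 CPM after knockdown. Only the second knockdown library stood above the other 3 (log2 fold change 0.08, SE 0.112, 95% interval -0.17 to 0.32, adjusted p = 0.658 by edgeR). The interval excludes a rise of the size seen for DNAJB9.

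CRELD2 encodes a disulfide isomerase-like protein that is secreted in part. The gene (ENSG00000184164, chromosome 22, positions 49918167 to 49927540, plus strand) had 735 and 985 counts in the controls, against 566 and 593 after knockdown. Its levels were 55.7 and 57.0 CPM in the controls, against 35.3 and 39.9 CPM after knockdown, so that the groups stood well apart. The mean fell from 56.3 ± 0.900 to 37.6 ± 3.23 CPM (SD, n = 2 each; log2 fold change -0.58, SE 0.1299, 95% interval -0.87 to -0.30, adjusted p = 0.00668 by edgeR). ALG12, a mannosyltransferase gene on the opposite strand, shares 3.25% of the exon bases of CRELD2 and had a log2 fold change of -0.24 (adjusted p = 0.223 by edgeR).

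HERPUD1 encodes a membrane protein of ER-associated degradation that assembles the HRD1 ubiquitin ligase complex. The gene (ENSG00000051108, chromosome 16, positions 56932142 to 56944864, plus strand) had 95.9 and 107 CPM in the controls, against 65.7 and 81.0 CPM after knockdown. The higher knockdown library was still below the lower control. The mean fell from 101 ± 7.71 to 73.3 ± 10.8 CPM (SD, n = 2 each; log2 fold change -0.47, SE 0.128, 95% interval -0.75 to -0.19, adjusted p = 0.0181 by edgeR).

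SDF2L1 encodes a lumenal protein that forms a complex with ER J proteins and prolongs the cycle of BiP on its clients. The gene (ENSG00000128228, chromosome 22, positions 21642302 to 21644299, plus strand) had 603 and 693 counts in the controls, against 501 and 466 after knockdown. Its levels were 45.7 and 40.1 CPM in the controls, against 31.3 and 31.3 CPM after knockdown. The knockdown libraries were alike and both below the controls. The mean fell from 42.9 ± 3.97 to 31.3 ± 0.0559 CPM (SD, n = 2 each; log2 fold change -0.45, SE 0.140, 95% interval -0.76 to -0.15, adjusted p = 0.0317 by edgeR).

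MANF encodes a secreted factor that binds BiP and stabilises the complexes of BiP with its clients. The gene (ENSG00000145050, chromosome 3, positions 51385047 to 51389397, plus strand) had 63.3 and 56.9 CPM in the controls, against 54.4 and 63.9 CPM after knockdown. The groups overlapped fully, with the second knockdown library highest and the first lowest (log2 fold change -0.02, SE 0.129, 95% interval -0.30 to 0.26, adjusted p = 0.926 by edgeR).

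PDIA4 encodes ERp72, a disulfide isomerase found in complexes with BiP and GRP94. The gene (ENSG00000155660, chromosome 7, positions 149003062 to 149028662, minus strand) had 3001 and 3326 counts in the controls, against 2694 and 2546 after knockdown. Its levels were 227 and 192 CPM in the controls, against 168 and 171 CPM after knockdown. Both knockdown libraries lay below both controls, but the gene missed the threshold (log2 fold change -0.31, SE 0.123, 95% interval -0.58 to -0.04, adjusted p = 0.0873 by edgeR). Corrected for levelling off with the canonical transcript length, PDIA4 was called as lower, with a log2 fold change of -0.45 (adjusted p = 0.0283 by edgeR). It was also called with the other correction, with library totals and with no filter, and was not called with the DESeq2 test (adjusted p = 0.0538), DESeq2 size factors, a filter of 1 CPM in 2 libraries or when any 1 library was left out.

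**Figure D2:**
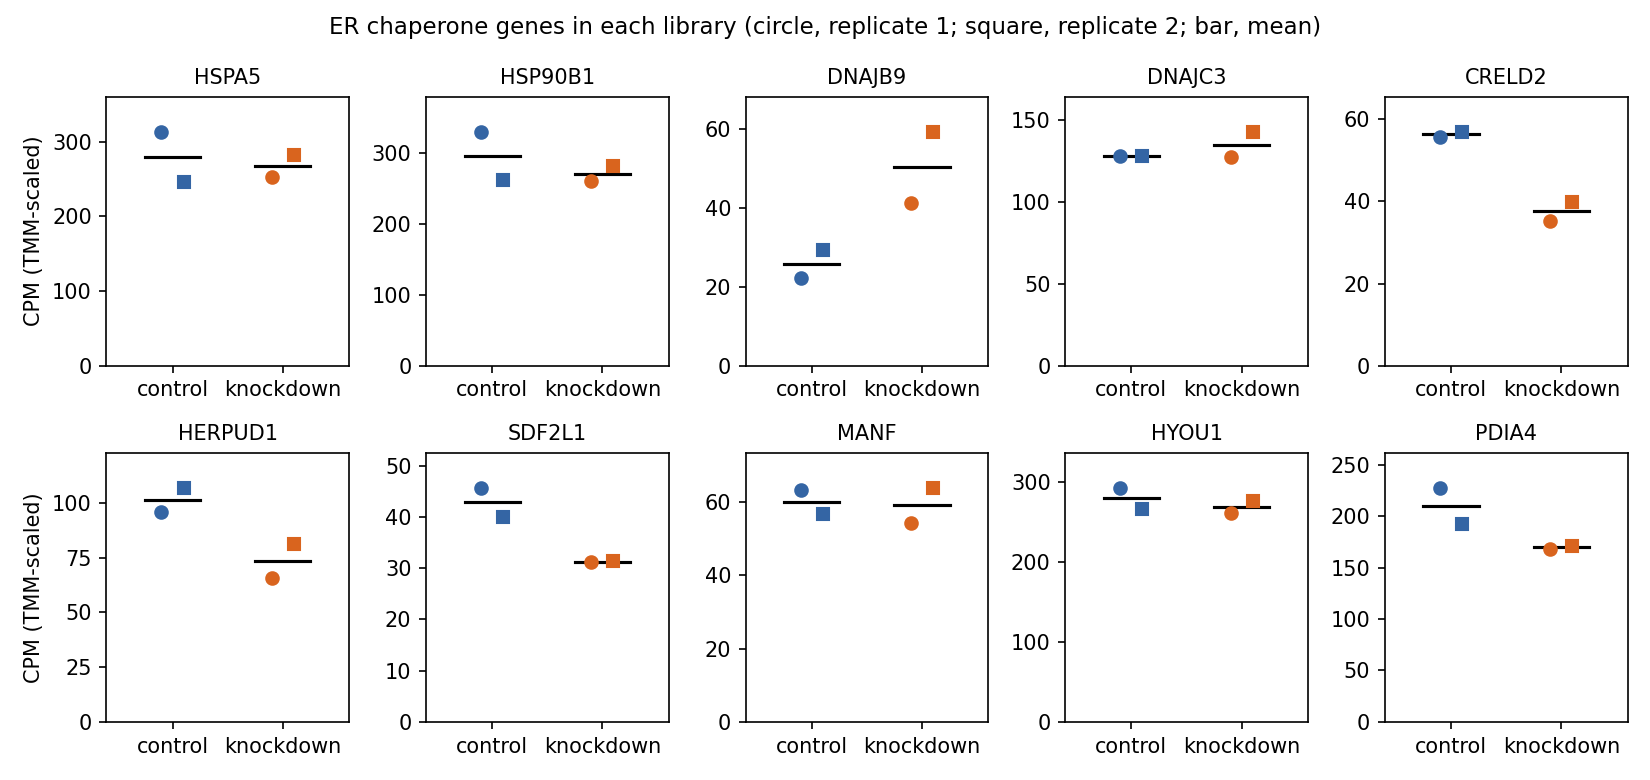
CPM of each of the 10 genes (y axis, from 0, on its own scale per panel) in the control (blue) and knockdown (orange) libraries; circles are replicate 1, squares replicate 2 and bars the mean of 2. DNAJB9 is higher in both knockdown libraries (41.2 and 59.3 CPM against 22.2 and 29.3), CRELD2, HERPUD1, SDF2L1 and PDIA4 are lower in both, and the groups overlap in the other 5.

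The groups did not overlap for 5 of the 10 genes, 1 higher and 4 lower in the knockdown, where 63.6% of all genes tested showed no overlap. The 4 called genes kept their direction when any library was left out. They kept their call without either knockdown library and lost it without either control, where edgeR adjusted p-values were 0.127 and 0.0556 for DNAJB9, 0.0799 and 0.104 for CRELD2, 0.0888 and 0.198 for HERPUD1, and 0.258 and 0.120 for SDF2L1. Over all genes 340 and 476 were called higher and 668 and 508 lower with the first or the second control left out, against 2470 and 2578 with all libraries. In such a fit the spread comes from the knockdown pair alone, whose libraries lay farther apart (chi-square over its degrees of freedom was 10.3, and 5.53 in the control pair).

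**Figure D3:**
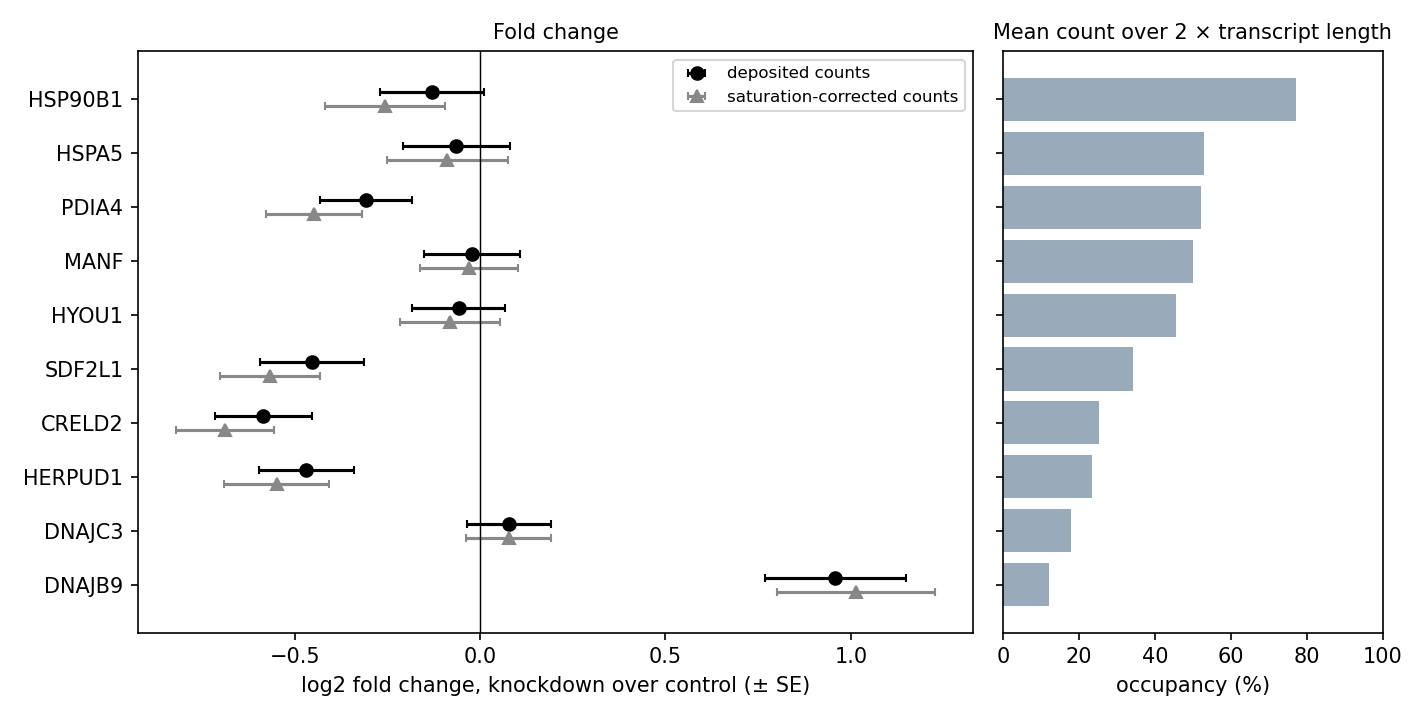
Left, log2 fold change of knockdown over control with its SE for the 10 genes from the deposited counts (black circles) and from counts corrected for levelling off with the canonical transcript length (grey triangles); right, the occupancy of each gene in percent, which orders the genes. The 5 genes above 40% occupancy have fold changes between -0.31 and -0.02 from the deposited counts, and the correction moves HSP90B1 to -0.26 and PDIA4 to -0.45.

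Levels of different genes were compared as CPM per kilobase of the exon length in the tables. In the controls HSPA5 was highest at 71.3 ± 12.2, followed by PDIA4 at 63.7 ± 7.52 and HSP90B1 at 63.0 ± 10.2 (SD, n = 2 each). Compared within a library, HSPA5 was highest in both controls (79.9 and 62.7), while PDIA4 (69.0 and 58.3) and HSP90B1 (70.2 and 55.7) changed order. SDF2L1 at 40.5 ± 3.75 and HYOU1 at 36.1 ± 2.40 came next, and SDF2L1 was the higher in both controls (43.2 and 37.9, against 37.8 and 34.4). MANF had 25.2 ± 1.91, DNAJC3 22.9 ± 0.0219 and HERPUD1 20.02 ± 1.52 CPM per kilobase. CRELD2 and DNAJB9 were lowest at 10.9 ± 0.174 and 10.1 ± 1.97, again within their spread. In the knockdown DNAJB9 had 19.8 ± 5.05, HERPUD1 14.5 ± 2.13 and CRELD2 7.28 ± 0.625 CPM per kilobase, the first pair being about as far apart as the SD of DNAJB9. The order depends on the length used: per kilobase of the canonical transcript, over all 4 libraries, HSP90B1 was highest at 102 and MANF, at 65.6, was close to HSPA5 at 69.8. The summed CPM of the 10 genes was 1573 and 1384 in the controls, against 1295 and 1429 after knockdown, so that the groups overlapped.

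Of the regulators that act on these promoters, XBP1 (log2 fold change 0.01, adjusted p = 0.954 by edgeR) and ATF6 (-0.04, adjusted p = 0.845 by edgeR) were not called, and gene counts do not show the splicing of XBP1 or the cleavage of ATF6. XBP1 had 1041 and 1259 counts in the controls, against 1121 and 1237 after knockdown. EIF2AK3, the PERK gene, rose by 0.49 on the log2 scale (adjusted p = 0.0166 by edgeR), from 38.5 to 54.2 CPM. ERN1, the IRE1 gene, had 57.5 CPM in the controls, against 71.8 CPM after knockdown and was not called (log2 fold change 0.32, adjusted p = 0.0874 by edgeR), although it was called as higher without knockdown replicate 1 (0.37, adjusted p = 0.0311 by edgeR). ATF4 (-0.07, occupancy 75.4%) and DDIT3, which encodes CHOP (-0.21, adjusted p = 0.560 by edgeR), were not called. Other genes share 39.6% of the exon bases of DDIT3, MARS1 on the opposite strand most of them. A gene on the same strand shares 8.03%. The value of DDIT3 turned on single libraries. Without knockdown replicate 2 it was called as lower (log2 fold change -0.59, adjusted p = 0.00508 by edgeR), and without knockdown replicate 1 or control replicate 2 it was above 0, at 0.067 and 0.16. Of 15 regulators in all, EIF2AK3 rose and TRIB3, a pseudokinase induced by ATF4, fell by 1.43 on the log2 scale.

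The relatives of the 10 genes outside the list, some in the ER and some in other compartments, gave 1 call among 20. HSPA4L, a cytosolic HSP110 relative of HYOU1, fell by 0.62 on the log2 scale (adjusted p = 0.00466 by edgeR). The relatives of HSPA5, HSPA8 in the cytosol and HSPA9 in mitochondria, had log2 fold changes of 0.02 and 0.02, and those of HSP90B1, HSP90AA1 and HSP90AB1, had -0.08 and 0.01. HSPA8, HSP90AA1 and HSP90AB1 were 85.5%, 80.5% and 89.7% full by the same measure. Of the closest relatives of genes that fell, CRELD1 had -0.36 (adjusted p = 0.144 by edgeR), HERPUD2 -0.11 (adjusted p = 0.591 by edgeR) and SDF2 0.29 (adjusted p = 0.112 by edgeR). CDNF, the paralog of MANF, had 82 and 96 counts in the controls, against 44 and 59 after knockdown (log2 fold change -0.81, adjusted p = 0.0573 by edgeR). CDNF was called as lower with no filter (-0.84, adjusted p = 0.0380 by edgeR), and without knockdown replicate 2 both CDNF (-1.10, adjusted p = 0.00873 by edgeR) and CRELD1 (-0.64, adjusted p = 0.00144 by edgeR) were. HSPA1A and HSPA1B are nearly identical, so their counts are uncertain.

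The rest of the protein folding system was described with 13 lists, which together held 175 tested genes besides the 10. Of these 11 rose and 13 fell, or 13.7%, against 25.6% of all genes tested and 28.5% of genes above a mean of 20 CPM. Their median log2 fold change was -0.00 to 2 decimals. The median occupancy of a list ran from 15.3% to 69.1%, against 8.68% over all genes tested. The part of occupancy in the lower share was not tested. Among 9 ER J proteins and exchange factors 3 rose and none fell. DNAJC16 rose by 0.87, DNAJC25 by 0.76 and DNAJB12, a membrane cochaperone of ER-associated degradation, by 0.46 on the log2 scale (adjusted p = 0.000298, 0.00162 and 0.0118 by edgeR). In the same list DNAJB11, the partner of SDF2L1 in the lumen, was at 0.11 (adjusted p = 0.532 by edgeR).

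Among 20 tested genes of the disulfide isomerase family and disulfide formation, 3 fell and 1 rose. The isomerase PDIA5, the sulfhydryl oxidase QSOX1 and the membrane thioredoxin TMX4 fell by 0.44, 0.39 and 0.40, and TMX3 rose by 0.44 on the log2 scale. Of 11 lectin chaperones and glycan trimming enzymes, EDEM2, which trims mannose to mark proteins for degradation, fell by 0.92 and the glucosidase MOGS fell by 0.45. In ER-associated degradation UBE2J1, a conjugating enzyme of the HRD1 complex in which HERPUD1 acts, was the only gene of 21 called, and fell by 0.65 on the log2 scale (adjusted p = 0.00908 by edgeR).

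Of 24 genes of the translocon and signal recognition, SRP19 and SEC61A2 rose by 0.72 and 0.46. ZRSR2P1, on the same strand, shares 13.98% of the exon bases of SRP19. It had 51 and 115 counts in the controls, against 342 and 355 after knockdown, and its part in the rise of SRP19 was not tested. Of 16 genes for KDEL receptors, which return lumenal chaperones to the ER, and COPII export, 3 rose: SEC24A by 0.52, MCFD2 by 0.36 and SAR1B by 0.35. Of 11 genes listed for calcium binding and transport, the pump ATP2A3 and SDF4 fell by 0.70 and 0.41, and the release channel ITPR1 rose by 0.48. None of 11 oligosaccharyltransferase genes was called by edgeR from the deposited counts. The smallest p there belonged to MAGT1 (0.25, adjusted p = 0.116 by edgeR) and DAD1 (-0.29, adjusted p = 0.150 by edgeR). DAD1 was called as lower from counts corrected with the canonical transcript length (-0.42, adjusted p = 0.0491 by edgeR).

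Outside the ER, 3 of 18 cytosolic heat shock genes fell: HSPA4L, the small heat shock protein gene HSPB1 by 0.45 and the heat shock factor gene HSF1 by 0.37 on the log2 scale. Of 13 mitochondrial chaperones and proteases only LONP1, the matrix protease, was called, and fell by 0.81 (adjusted p = 0.000683 by edgeR). None of 8 genes of the cytosolic chaperonin TRiC was called by edgeR. CCT6A had a log2 fold change of 0.07 and CCT7 one of -0.04, in a list with a median occupancy of 69.1%. Of the 24 named genes called in these lists, 18 were no longer called when the first control was left out and 18 when the second was, and all 24 kept their direction without any 1 library.

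**Figure D4:**
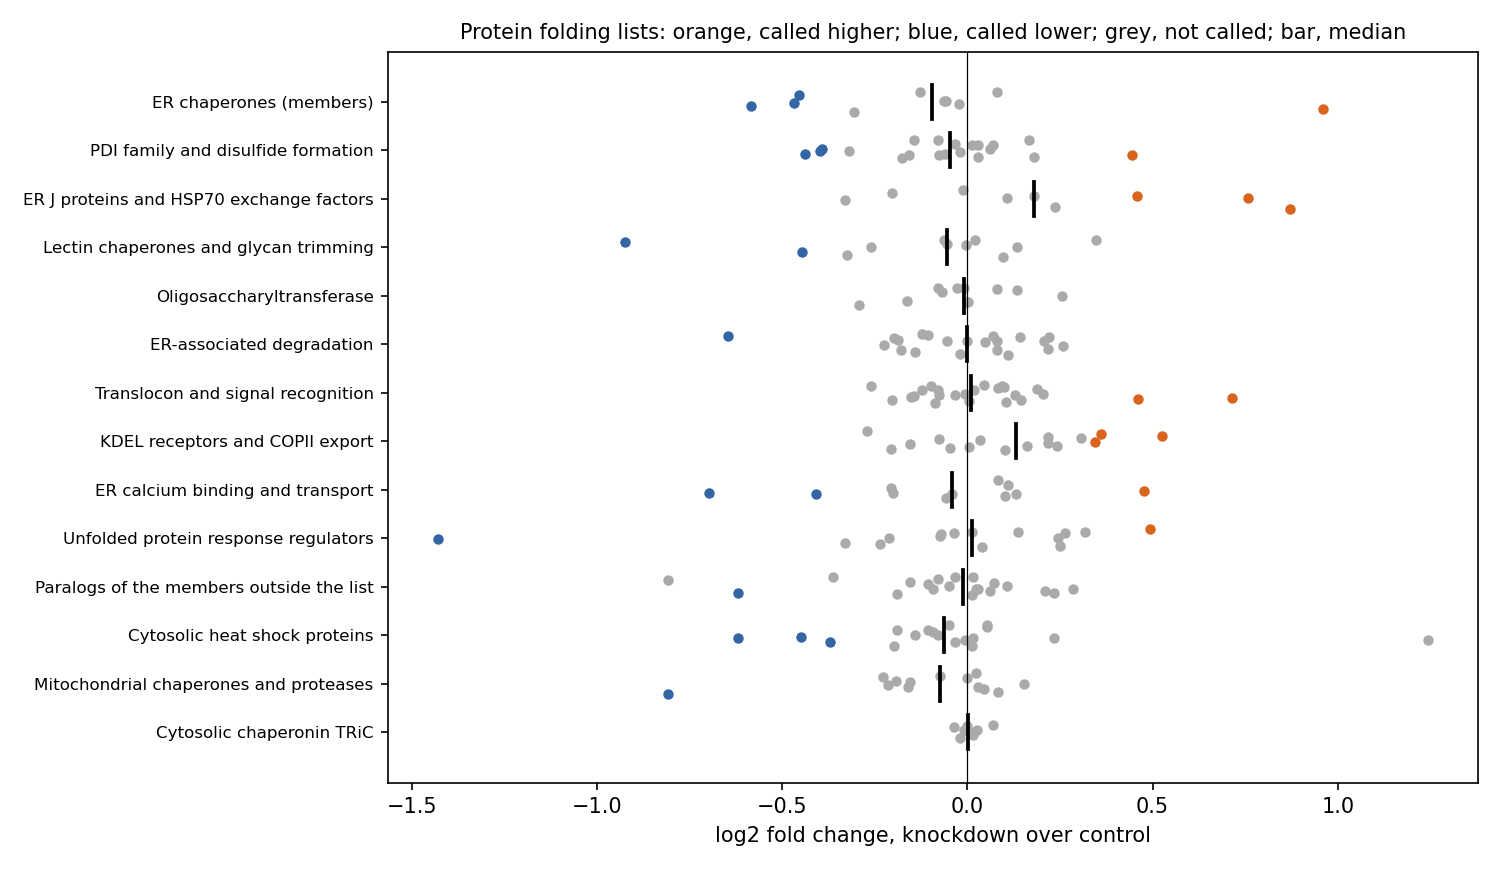
Log2 fold change of knockdown over control (x axis) for each tested gene of the 10 ER chaperones and 13 other lists of the protein folding system; orange points were called higher, blue points lower and grey points not called, and bars are medians. DNAJB9 is the rightmost orange point of the top line at 0.96, and TRIB3 the leftmost blue point of the regulators at -1.43.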

How the data were processed

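Each library has a table of whole-number read counts per gene, used as the authors deposited them and laid out like featureCounts output. Alignment and counting tools are listed in the submitters' processing notes, without settings or order: Subread, featureCounts, SAMtools and HISAT2 2.0.4, with build GRCh38. The tables' other column used here is the exon length per gene, per the file headers. Symbols came from GENCODE release 44, which held 58472 of the 58884 genes; promoter sequences came from RefSeq.

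Tests used edgeR 4.0.16 in R 4.3.3 (filterByExpr, TMM factors, robust quasi-likelihood F test, term for the group, Benjamini-Hochberg adjustment over all genes tested). SEs are the log2 fold change over the root of F, and 95% intervals use the moderated degrees of freedom. The correction for levelling off replaces a count c by -2L ln(1 - c/2L), with L the exon length in the table or, added after the data were seen, the canonical transcript length, and c/2L limited to 0.99. The fit was tested on simulated data. Members, lists and the rule for named genes were chosen with earlier results of these data known. The rule names all 10 genes, their paralogs, 6 regulators and, per list, the called genes of smallest p, up to 4 in the direction that was more frequent and 2 in the other, or 2 uncalled ones. Protein sequences were not used here. Some genes that the rule names are not reported here.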

Additional observations from a re-analysis of the deposited data

How the results depend on the processing

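The numbers of genes called, 2470 higher and 2578 lower, stayed within 1.5-fold with DESeq2 size factors, a filter of 1 CPM in 2 libraries, library totals, unfiltered counts, the Wald test of DESeq2 1.42.0 and both corrections for levelling off. Leaving out 1 library gave 340 to 2908 higher and 508 to 3351 lower. It gave 0 to 1 of the 10 genes higher, 0 to 3 lower, and 2 to 12 higher and 3 to 16 lower in the other lists. The replicate numbers of the titles, and the line numbers of a source label that run with them, are not said to mark a shared culture, batch or day. Same-numbered libraries deviated with a correlation of 0.266 over 13920 genes, and with the replicate number as a block 3518 genes were called higher and 3536 lower. PDIA4 was called with that block (log2 fold change -0.30), with library totals (-0.33), with no filter (-0.33) and with the corrections (-0.41 with the exon length, -0.45 with the canonical length). The block changed the call of no other of the 10 genes. Of the other named genes that were uncalled, it called ERN1 (0.32), CRELD1 (-0.37) and CDNF (-0.82).

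With 1 library left out, log2 fold changes ran from 0.67 to 1.18 for DNAJB9, -0.68 to -0.52 for CRELD2, -0.63 to -0.34 for HERPUD1, -0.56 to -0.39 for SDF2L1, -0.24 to 0.084 for HSPA5, -0.30 to 0.0086 for HSP90B1, -0.15 to 0.071 for MANF and -0.013 to 0.14 for DNAJC3. Uncalled genes near 0 also crossed it: XBP1 (-0.12 to 0.11), ATF6 (-0.13 to 0.0088), ATF4 (-0.22 to 0.0375), DDIT3 (-0.59 to 0.16), HSPA1A (-0.27 to 0.12), HSPA8 (-0.12 to 0.11), HSPA9 (-0.086 to 0.0896), HSP90AA1 (-0.24 to 0.0401), HSP90AB1 (-0.18 to 0.17), DNAJC7 (-0.0059 to 0.10), PDIA3 (-0.0850 to 0.17), P4HB (-0.0937 to 0.11), PDIA6 (-0.16 to 0.0440), CCT6A (-0.0815 to 0.18) and CCT7 (-0.21 to 0.10). With library totals, the Wald test and no filter, the values were -0.0082, -0.0122 and -0.0146 for XBP1, -0.0049, -0.0091 and -0.0110 for HSPA8, and -0.0079, -0.0131 and -0.0146 for HSP90AB1. HSPA9 had -0.0008 with the Wald test and -0.0022 with no filter. The cause was not tested. HSPA5, HSP90B1, PDIA4, MANF and HYOU1 had occupancies over 40% by the canonical transcript length. For these genes a levelling off of counts, which was not tested, would limit what a fold change can show.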

Other observations

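Besides the 6 chaperone genes, 38 genes of the RefSeq table hold a full ER stress response element of either form in their promoter window, of which 26 were tested. Of these GYS1, a glycogen synthase gene, SYNPO, an actin-associated gene, and TMEM120A fell, by 0.62, 2.64 and 0.58 on the log2 scale, and ZNF17 rose by 1.06 (adjusted p = 0.00172, 1.91e-05, 0.0237 and 0.00167 by edgeR). The median log2 fold change of the 26 was -0.04.

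The mean pattern of the 10 genes over the 4 libraries, in log2 CPM centred on each gene, was close to that of SEC11C, MEN1, RND1 and PJA2, with root mean square distances of 0.0105 to 0.0120. The 10 genes themselves lay 0.0455 (HYOU1) to 0.567 (DNAJB9) from that mean. Of the 13954 genes compared, 95.01% lay at least as close as DNAJB9, and no such share was computed for the other called genes. The called genes, SDF2L1 nearest at 0.188, lay farther from the mean pattern than the uncalled ones, PDIA4 farthest at 0.126. That pattern is nearly flat, from -0.14 to 0.09, so the distance largely restates a gene's own change over the libraries that gave the call.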
